A study of Mus musculus with 6 samples.

Results

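The Schlafen genes are a family of mouse genes that lie side by side on chromosome 11. The 7 members Slfn1, Slfn2, Slfn3, Slfn4, Slfn5, Slfn8 and Slfn9 were taken by gene name from the 78298 genes of the deposited table, in all 6 samples. RENCA, a mouse renal adenocarcinoma cell line, received either an Aqp1-expressing lentivirus (oe-AQP1, n = 3) or the matching negative control lentivirus (oe-NC, n = 3). Cells of both groups thus carried a vector, and both went through 14 days of puromycin (2 μg/mL), with RNA taken 2 weeks after transduction. The transgene was driven by the ubiquitin C promoter, and the control vector was empty. The labels place all samples in 1 batch and call them biological replicates, and they do not say whether the samples came from separate transductions, so p-values measure the spread between these samples.

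Schlafen proteins share an N-terminal core with a divergent AAA domain, and the mouse members fall into short, intermediate and long classes. The long members carry in addition a C-terminal region related to superfamily I helicases. The genes are best known from lymphocytes and myeloid cells, where they are tied to quiescence, differentiation and control of growth, and several are induced by type I interferon. Interferon acts through a receptor and Janus kinases, which activate transcription factors that bind promoter sequences known as interferon-stimulated response elements.

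All 5 Schlafen genes with enough reads to be tested were higher in oe-AQP1 cells, between 2.2-fold for Slfn3 and 5.54-fold for Slfn5. Slfn2, Slfn8 and Slfn9 made up nearly all of the Schlafen transcripts in both groups. The other 2 members, Slfn1 and Slfn4, had at most 14 counts in any sample and were left out by the low-count filter. Summed over the 7 genes, the family took 866, 871 and 892 of every 1000000 scaled counts (CPM) in oe-AQP1 samples 1 to 3, and 224, 238 and 240 CPM in the oe-NC samples. The means were 877 ± 13.5 and 234 ± 8.68 CPM (SD, n = 3 each), a ratio of 3.75, and the groups did not overlap. The ratio was 3.67 without oe-NC sample 1, which stood apart from its group in the check of replicates. In bulk RNA, a larger share of expressing cells and more transcript per cell cannot be told apart.

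The regions just upstream of the RefSeq starts of the genes are shown because the members tested rose together. RefSeq gives a promoter window for 7 of 7 members on GRCm38.p6, and each was located by an exact match in GRCm39, the build of all positions given here. The core of the interferon-stimulated response element, written GAAA, any 2 bases and GAAA, was searched on both strands in the 250 bases before the RefSeq start and was present upstream of 3 members, all of the long class. Capitals mark the match, and bases that GENCODE annotates as untranslated leader were cut off at the 3′ end. The stretches lie at chr11:82842678-82842920 (plus strand) for Slfn5, at chr11:82911670-82911886 (minus strand) for Slfn8 and at chr11:82882657-82882906 (minus strand) for Slfn9.
Slfn5: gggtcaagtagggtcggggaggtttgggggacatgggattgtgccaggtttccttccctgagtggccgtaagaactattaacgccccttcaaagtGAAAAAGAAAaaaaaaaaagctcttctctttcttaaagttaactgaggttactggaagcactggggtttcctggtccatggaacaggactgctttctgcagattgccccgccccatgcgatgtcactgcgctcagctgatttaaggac
Slfn8: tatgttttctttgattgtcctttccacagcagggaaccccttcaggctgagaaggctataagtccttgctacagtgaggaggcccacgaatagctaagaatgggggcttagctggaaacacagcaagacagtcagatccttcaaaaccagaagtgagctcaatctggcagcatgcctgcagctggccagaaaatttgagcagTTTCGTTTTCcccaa
Slfn9: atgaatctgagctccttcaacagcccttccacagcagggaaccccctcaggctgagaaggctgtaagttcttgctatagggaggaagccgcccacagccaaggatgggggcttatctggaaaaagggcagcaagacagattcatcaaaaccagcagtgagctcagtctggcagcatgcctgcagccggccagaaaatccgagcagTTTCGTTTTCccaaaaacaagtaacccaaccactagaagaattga
The stretch of Slfn5 lies downstream of the first start that GENCODE gives this gene, within its span, and overlaps an exon of a noncoding transcript. The match ran from -155 to -146 in Slfn5, counted from the RefSeq start, and there led directly into a run of A bases. It ran from -48 to -39 in Slfn8 and from -45 to -36 in Slfn9, in both on the opposite strand and with the same letters. RefSeq lists a second start for Slfn8, from which the same match lies at -136 to -127. The upstream windows of these neighbouring genes were identical at 85.1% of 242 aligned bases. Of all 32851 promoter windows in the RefSeq table, 978 (3.0%) held this core. The STAT palindrome TTCNNNGAA was found upstream of 0 members, against 7.0% of all windows, which says only that these letters were absent from the 250 bases searched.

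The short and intermediate members held no such core in this window and shared another block of letters. ACTTCCTGG, which was picked after the sequences had been read and is therefore a description only, stood upstream of Slfn1, Slfn2, Slfn3 and Slfn4 on the coding strand. Of all promoter windows, 230 (0.7%) held it on either strand. The block is shown in capitals within 30 bases, at chr11:83007562-83007591 for Slfn1, chr11:82955873-82955902 for Slfn2, chr11:83082104-83082133 for Slfn3 and chr11:83065929-83065958 for Slfn4, all on the plus strand.
Slfn1: gatgtctcacACTTCCTGGagtgacatcaa
Slfn2: cagggctttcACTTCCTGGagggtgacagt
Slfn3: ggatgacagaACTTCCTGGgggagggactc
Slfn4: ttccggttatACTTCCTGGagtgacgaaat
Counted from the RefSeq start, the block began at -74 in Slfn1, -55 in Slfn2, -42 in Slfn3 and -73 in Slfn4. For Slfn2 the whole window lay inside a longer leader exon of the GENCODE annotation. Binding of any factor to these sequences was not measured in this experiment.

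Expression was deposited as an estimated read count per gene, and the counts of a sample summed to between 18385714.02 and 21920898.67. Aqp1, the targeted gene, had 7713, 8545 and 7838 counts with the Aqp1 vector and 41, 25 and 45 with the control vector (log2FC = 7.70, FDR = 1.34e-10). Here log2FC is oe-AQP1 over oe-NC on the log2 scale, and FDR is the Benjamini-Hochberg adjusted p-value of limma-voom over the 15522 genes that passed the low-count filter. oe-NC sample 1 stood apart from its group, with a chi-square per gene of 9.54 and 11.1 against oe-NC samples 2 and 3, where other pairs of the same group gave 1.71 to 2.04. Values without it are given for the main results on the members and for the counts over the interferon lists, and not for every result that follows.

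At thresholds of 0.05 for the FDR and 1 for the absolute log2FC, 5 of the 5 members tested were higher in oe-AQP1 cells and 0 were lower. The same thresholds called 4.39% of all genes tested as higher and 0.844% as lower. Slfn5 passed the low-count filter through its oe-AQP1 samples, so a lower call was hardly open to it. A filter of at least 10 counts in every sample removed Slfn5. With it 4 members were called higher, as were 416 of 14006 genes tested. The median log2FC was 1.86 over the members tested and 0.0 over all genes tested. Without oe-NC sample 1 the count of members called higher was 6, since Slfn1 then passed the low-count filter. It passed through its oe-AQP1 samples only, so nothing is read from this added call. With edgeR's quasi-likelihood test and with DESeq2 the count was 5, as in limma-voom.

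**Figure D1:**
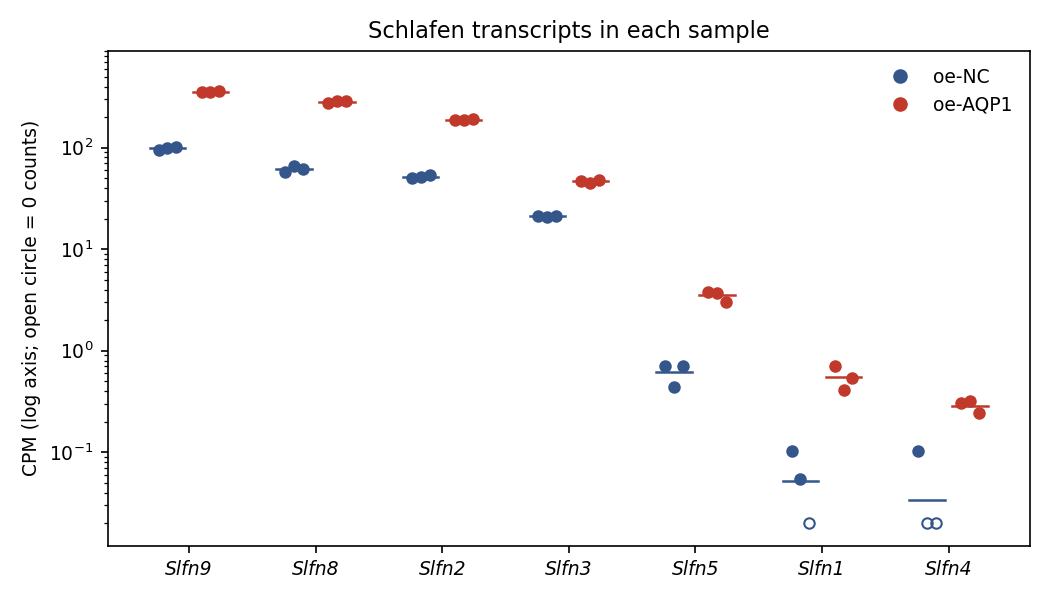
CPM of the 7 Schlafen genes in each sample on a log axis, with oe-NC in blue and oe-AQP1 in red; points are samples, lines are group means and open circles are samples with 0 counts, drawn at the bottom of the axis. For each gene the 3 oe-AQP1 samples sit above the 3 oe-NC samples, and Slfn9, Slfn8 and Slfn2 are far above the rest.

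Among the short members, Slfn2 was abundant and Slfn1 was near the detection limit. Slfn2 (ENSMUSG00000072620, chr11:82955609-82961504, plus strand) is required for quiescence of T cells and monocytes in mice. It was at 187, 186 and 193 CPM in oe-AQP1 samples 1 to 3 and at 50.5, 50.8 and 54.3 CPM in oe-NC samples 1 to 3. The samples of each group lay close together and the groups were far apart. The mean was 189 ± 3.7 CPM in oe-AQP1 against 51.9 ± 2.12 CPM in oe-NC cells (SD, n = 3), and the change was 3.63-fold in limma-voom (log2FC = 1.86, SE 0.04, FDR = 4.61e-10). The log2FC was 1.84 without oe-NC sample 1.

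Slfn1 (ENSMUSG00000078763, chr11:83007615-83013496, plus strand) slows thymocyte growth when it is overexpressed. oe-AQP1 samples 1 to 3 held 14, 9 and 11 reads of it, and oe-NC samples 1 to 3 held 2, 1 and 0. Every oe-AQP1 sample was above every oe-NC sample, at a depth of a few reads. Pooled over samples and corrected for library totals, 34 against 3 counts gave a ratio of 10.9 (95% exact interval 3.42 to 55.3, counting error only). The ratio was 21.8 without oe-NC sample 1 and 6.96 without oe-NC sample 3. Slfn1 was not tested with the low-count filter in place. With no low-count filter limma-voom gave a log2FC of 3.12 (FDR = 0.00268). That fit took in 34240 genes, against 15522 with the filter. It moved the limma-voom FDR of Slfn2 from 4.61e-10 to 6.03e-14 at nearly the same log2FC. The FDR of Slfn1 from it is therefore a description only.

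The intermediate members showed the same contrast in level. Slfn3 (ENSMUSG00000018986, chr11:83082123-83109101, plus strand) has been tied to T cell development and to differentiation of intestinal epithelium. It was at 46.5, 44.5 and 48.3 CPM in the oe-AQP1 samples and at 21.0, 20.9 and 21.2 CPM in the oe-NC samples. The groups did not overlap, and the change was the smallest among the members tested. The mean was 46.4 ± 1.93 against 21.0 ± 0.13 CPM (SD, n = 3), a 2.2-fold difference in limma-voom (log2FC = 1.14, SE 0.06, FDR = 1.96e-07). The log2FC was also 1.14 without oe-NC sample 1, and it stayed above the fold threshold of 1 in all leave-one-out fits (1.11 to 1.17).

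Slfn4 (ENSMUSG00000000204, chr11:83066012-83081042, plus strand) is known from activated macrophages and other myeloid cells. oe-AQP1 samples 1 to 3 held 6, 7 and 5 reads of it, and oe-NC samples 1 to 3 held 2, 0 and 0. The groups did not overlap here either, with few reads behind each value. The pooled ratio of 18 to 2 counts was 8.63 (95% exact interval 2.07 to 76.7, counting error only). It was 5.53 without oe-NC sample 3, and without oe-NC sample 1 the control group held 0 counts. Slfn4 was likewise not tested with the filter in place. With no low-count filter limma-voom gave it a log2FC of 2.82 (FDR = 0.00608), a description only, as for Slfn1. The coding sequences of Slfn3 and Slfn4 were identical at 92.3% of 1785 aligned bases. Even so, windows of 100 exonic bases that also occur in another gene made up only 1.7% of Slfn3 and 0.2% of Slfn4.

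The long members comprised 2 of the most abundant genes of the family and a rare one, and all 3 were tested. Slfn8 (ENSMUSG00000035208, chr11:82892984-82911669, minus strand), expressed in T cells and macrophages, was at 278, 285 and 287 CPM in the oe-AQP1 samples. In the oe-NC samples Slfn8 was at 57.3, 65.8 and 61.9 CPM. The oe-NC samples were more spread than the oe-AQP1 samples relative to their level, and the groups were far apart. The mean was 283 ± 4.75 against 61.7 ± 4.26 CPM (SD, n = 3), a 4.6-fold difference in limma-voom (log2FC = 2.20, SE 0.05, FDR = 3.1e-10). The log2FC of Slfn8 was 2.15 without oe-NC sample 1.

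Slfn9 (ENSMUSG00000069793, chr11:82868552-82882656, minus strand) lies next to Slfn8 and is closest to it in sequence, with 92.7% of 2730 aligned coding bases identical. It was at 350, 351 and 360 CPM in the oe-AQP1 samples and at 94.4, 100 and 102 CPM in the oe-NC samples. It had the most counts of the family in every sample. The mean was 354 ± 5.17 against 98.8 ± 3.91 CPM (SD, n = 3), a 3.58-fold difference in limma-voom (log2FC = 1.84, SE 0.04, FDR = 2.46e-10). The log2FC of Slfn9 was 1.81 without oe-NC sample 1.

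Slfn5 (ENSMUSG00000054404, chr11:82842100-82855666, plus strand), a nuclear member induced by interferon that has been linked to lower motility of renal and melanoma cells, was low in both groups. It was at 3.79, 3.73 and 3.02 CPM in the oe-AQP1 samples and at 0.713, 0.438 and 0.704 CPM in the oe-NC samples, where it had 14, 8 and 15 counts, so that it passed the low-count filter through its oe-AQP1 samples. The lowest oe-AQP1 sample was well above the highest oe-NC sample. The mean was 3.51 ± 0.432 against 0.618 ± 0.156 CPM (SD, n = 3), a 5.54-fold difference in limma-voom (log2FC = 2.47, SE 0.26, FDR = 5.92e-05). Its standard error was the largest of the 5, and leaving out 1 sample at a time gave log2FC values from 2.26 to 2.58. The value was 2.58 without oe-NC sample 1.

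Taken 1 gene at a time, an exact two-sided permutation test of the CPM gave p = 0.1 for each of the 7 members. This is the smallest value that 3 against 3 samples allow. The share of all genes that reach it was not counted, so nothing is read from the 7. Among all genes tested by limma-voom, 1.11% had a larger log2FC than Slfn5 and 1.35% a larger one than Slfn8. For Slfn2 and Slfn9 these shares were 1.89% and 1.93%, and for Slfn3 the share was 3.96%.

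Per kilobase of exon, Slfn2 was the highest member, at 94.6 ± 1.86 CPM per kb in oe-AQP1 and 26.0 ± 1.06 in oe-NC cells (SD, n = 3). Slfn8 was next in oe-AQP1 cells with 68.7 ± 1.15 CPM per kb, followed by Slfn9 with 53.4 ± 0.78. In oe-NC cells these neighbours in the order did not differ beyond their spread, with 14.9 ± 1.03 CPM per kb for Slfn8 and 14.9 ± 0.59 for Slfn9. Slfn3 followed at 7.03 ± 0.293 CPM per kb in oe-AQP1 and 3.18 ± 0.0197 in oe-NC cells. Slfn5 reached 0.542 ± 0.0667 and 0.0955 ± 0.0242, and Slfn1 reached 0.272 ± 0.0741 and 0.0258 ± 0.0252 CPM per kb. Slfn4 was the lowest at 0.0653 ± 0.00901 and 0.00769 ± 0.0133, and in oe-NC cells Slfn1 and Slfn4 overlapped.

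As shares of the family per kb, Slfn2 made up 42.1 ± 0.234% in oe-AQP1 and 44.0 ± 1.21% in oe-NC cells (SD, n = 3). Slfn8 made up 30.6 ± 0.338% in oe-AQP1 and 25.2 ± 1.23% in oe-NC cells, with no overlap between the samples. The share of Slfn9 was 23.8 ± 0.0381% against 25.2 ± 0.132%, and that of Slfn3 was 3.13 ± 0.0968% against 5.38 ± 0.184%. Slfn3 and Slfn9 thus took a smaller share of a larger family total, while for Slfn2 the samples of the groups overlapped when counts were not divided by length (21.4% to 21.6% against 21.3% to 22.7%). Without oe-NC sample 1 the shares in oe-NC cells were 43.7% for Slfn2, 25.7% for Slfn8, 25.2% for Slfn9 and 5.27% for Slfn3. Slfn5, Slfn1 and Slfn4 held 0.242%, 0.121% and 0.0291% of the family in oe-AQP1 cells. No test was made on these shares, which add up to a fixed sum.

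**Figure D2:**
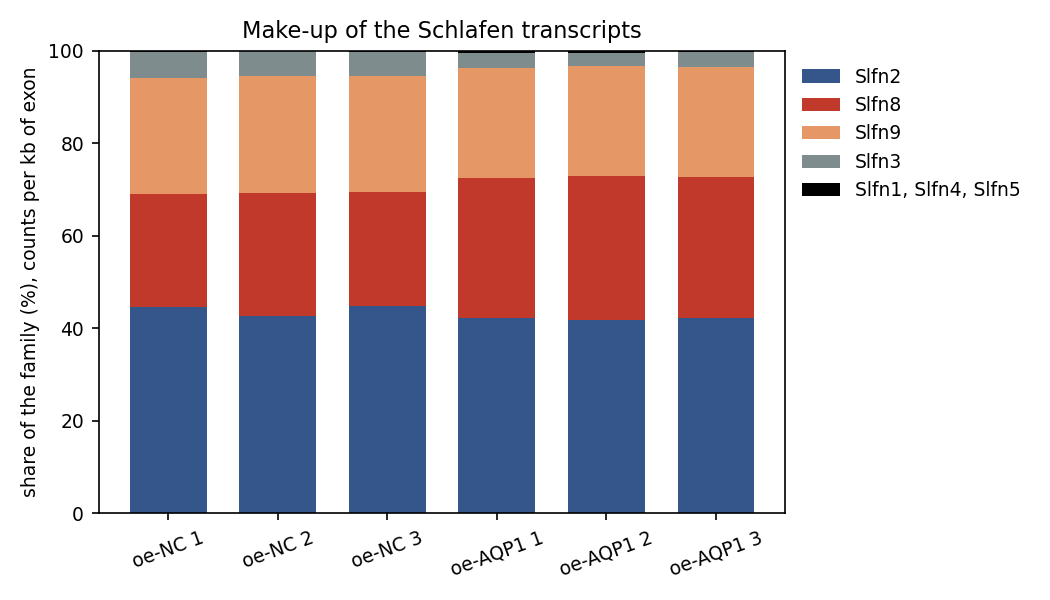
Share of each Schlafen gene in the family total of each sample, in percent of counts per kb of exon; each bar is 1 sample and adds up to 100. Slfn2, Slfn8 and Slfn9 fill most of every bar, and the Slfn8 part is larger in the 3 oe-AQP1 bars (mean 30.6%) than in the 3 oe-NC bars (mean 25.2%).

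The members differed in how far they rose. For each of the 10 pairs of members tested, the log2 ratio of their CPM was taken within each sample, and the ratios were compared between groups. In 8 pairs the ratios of the groups did not overlap. The exact two-sided permutation test gave these p = 0.1, the smallest possible, and 0.125 adjusted over the 10 pairs. None could thus reach 0.05 in this design. How often pairs of other genes separate in this way was not counted, so the 8 is a description only. The largest shift was that of Slfn3 against Slfn5, whose log2 ratio fell by 1.39, and Slfn3 also fell by 1.06 against Slfn8 and by 0.70 against Slfn9. The ratio of Slfn2 to Slfn3 was 0.72 higher in oe-AQP1 cells. These differences without oe-NC sample 1 were -1.51 for Slfn3 against Slfn5, -1.01 against Slfn8, -0.67 against Slfn9 and 0.70 for Slfn2 against Slfn3. Slfn3 was thus the member that rose least in every pair.

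Slfn8 and Slfn9 are neighbours with nearly the same coding sequence, yet their ratio moved. The log2 ratio of Slfn8 to Slfn9 was -0.32 ± 0.02 in oe-AQP1 and -0.68 ± 0.06 in oe-NC cells (SD, n = 3), a difference of 0.36 with no overlap. The ratio of Slfn2 to Slfn9 was -0.91 ± 0.01 against -0.93 ± 0.05, a difference of 0.02 with overlapping samples (exact permutation p = 0.8). Slfn5 against Slfn8 differed by 0.33, again with overlap (exact permutation p = 0.4, adjusted 0.444). Without oe-NC sample 1, the differences were 0.34 for Slfn8 against Slfn9, 0.04 for Slfn2 against Slfn9 and 0.50 for Slfn5 against Slfn8.

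**Figure D3:**
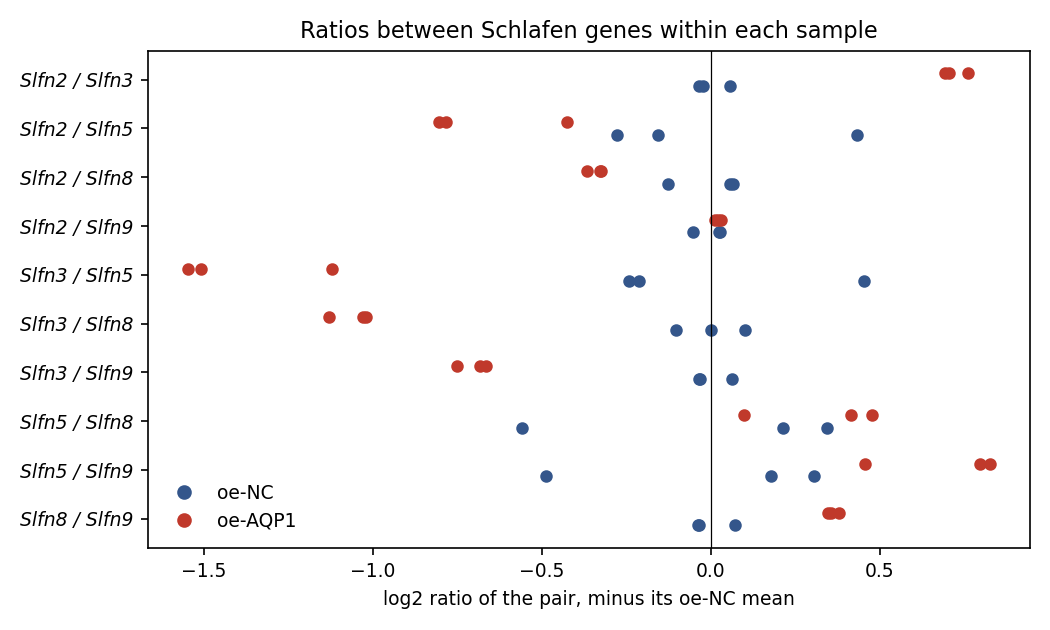
Log2 ratio of the CPM of 2 Schlafen genes within each sample for the 10 pairs, with the mean of the oe-NC samples of each pair set to 0; each point is 1 sample, oe-NC in blue and oe-AQP1 in red. The shift reaches -1.39 for Slfn3 against Slfn5, and the red points lie clear of the blue ones in 8 pairs, while the samples overlap for Slfn2 against Slfn9 and Slfn5 against Slfn8.

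How reads were divided between overlapping genes bears on some members. The expected counts were whole numbers in every sample for 3 members, Slfn1, Slfn2 and Slfn4, and were fractions in most or all samples for Slfn3, Slfn5, Slfn8 and Slfn9. Of the 100-base exonic windows of Slfn8, 21.7% also occur in another gene, most of them in the lncRNA Gm74281 on the opposite strand. For Slfn5 this share was 15.8%, mostly with the antisense gene Slfn5os, and for Slfn9 it was 3.3%. Whether reads were counted by strand is not given in the sources used here, so reads of these genes and of their antisense partners cannot be told apart. Gm74281 itself had 31 to 50 counts with oe-AQP1, against 5 to 14 with oe-NC, and Slfn5os had at most 5 counts in a sample. Both were far below the counts of Slfn8, and Slfn5os was below those of Slfn5.

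Other entries of the family were nearly silent. Slfn14, a long member best known from red cells and platelets, had 1 count in 1 sample of each group, and Slfn10-ps and Slfnl1 were listed at 0 in all 6 samples.

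The Schlafen genes tested lay within a cluster of 267 kb, and none of the protein-coding genes listed beside it passed both thresholds. Of 8 neighbouring genes listed, 6 were tested. At an FDR under 0.05, which calls 16.0% of all genes tested as higher and 16.6% as lower, 3 of them were higher and 1 was lower. The absolute log2FC of the 6 stayed under 1. Rffl, a ubiquitin ligase gene, had the highest value (log2FC = 0.36, FDR = 0.000338 by limma-voom) and Ap2b1, a subunit of the clathrin adaptor AP-2, the lowest (log2FC = -0.13, FDR = 0.012). The median log2FC of the 6 was 0.15, against 1.86 for the Schlafen genes.

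Within 300 kb of the cluster on either side, 20 genes other than the members were tested. Past both thresholds were 1 of the 14 outside the cluster and 4 of the 6 between the Schlafen genes, against 4.39% of all genes tested that were called higher. All 5 had few counts in the oe-NC samples and passed the low-count filter only through their oe-AQP1 samples, so nothing is read from these counts. The 4 are lncRNAs, named here after their values were seen. Gm74280, opposite to Slfn8, had 39 to 47 counts with oe-AQP1, against 3 to 9 with oe-NC (log2FC = 2.78, FDR = 0.000145). Gm74281 (log2FC = 2.04, FDR = 0.00235), 1190001M18Rik (log2FC = 2.53, FDR = 0.00593) and Gm74288 (log2FC = 1.82, FDR = 0.0217) were higher as well, with at most 50 counts in a sample.

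The other genes between the members did not pass the FDR threshold. Gm20234, an lncRNA antisense to Slfn2, had 246 to 304 counts with oe-AQP1, against 230 to 285 with oe-NC, with a log2FC of 0.04 (FDR = 0.75). The pseudogene Gm11425 had a log2FC of 0.03 (FDR = 0.934). The 1 outer gene past both thresholds was Heatr9, which had 15 counts in each oe-AQP1 sample and at most 1 in an oe-NC sample. Its pooled ratio was 21.6 (95% exact interval 5.63 to 184, counting error only).

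**Figure D4:**
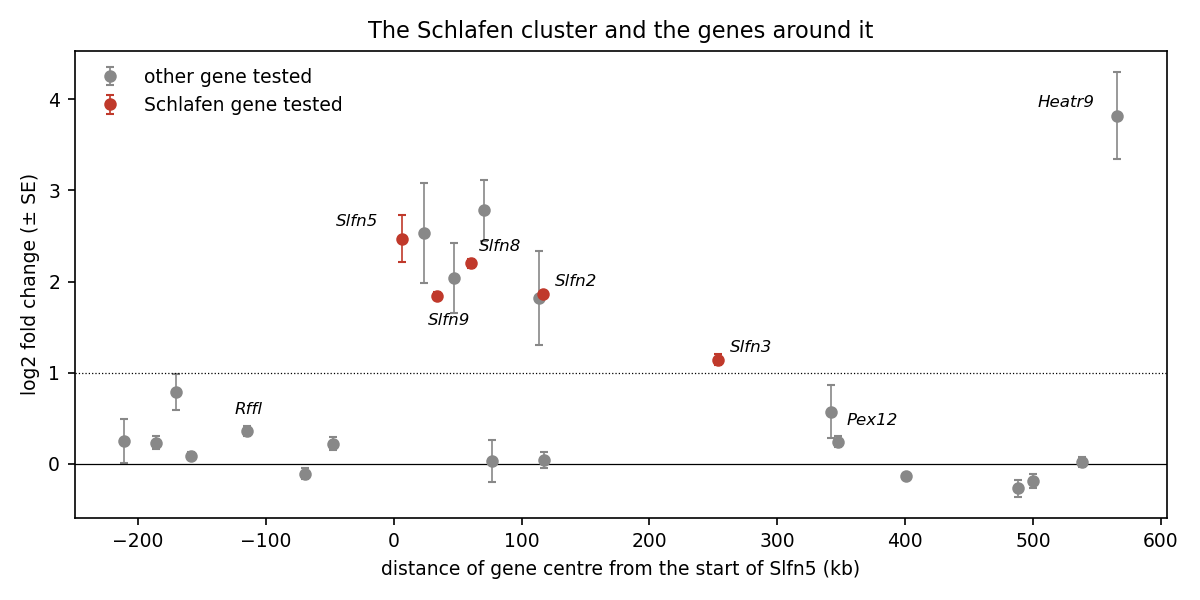
Log2 fold change with its SE against the distance of a gene's centre from the start of Slfn5, in kb, for the 5 Schlafen genes tested (red) and the 20 other genes tested within 300 kb of the cluster (grey); the dotted line marks the fold threshold of 1. The Schlafen genes and 4 lncRNAs between them lie above the line, and of the genes outside the cluster only Heatr9 does.

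Most of the interferon pathway genes listed were higher in oe-AQP1 cells, as the Schlafen genes were. The paper's methods set interferon-stimulated and viral defense genes aside before its gene list was made, whereas no gene was set aside here. The paper gives limiting transfection artifacts as its reason, and it kept inflammatory mediators relevant to cancer. Of 38 genes in 5 lists, 36 were tested, of which 28 were higher, 2 were lower and 6 did not pass the FDR threshold. That threshold called 16.0% of all genes tested as higher and 16.6% as lower. With the fold threshold added, 24 were higher and 0 were lower, against 4.39% and 0.844% of all genes tested. The lists were chosen with earlier results of these data known, so these counts are a description only. Ifnb1 and Ifna4, counted among the 28, passed the low-count filter only through their oe-AQP1 samples. The median log2FC of the 36 was 1.74, also with Ifna4 at its lower bound. Without oe-NC sample 1 the number higher was again 28 at the FDR threshold and 24 past both.

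Of the 4 type I interferon genes listed, 2 were tested and both were higher. These 2 passed the low-count filter only through their oe-AQP1 samples, so nothing is read from this count. Ifnb1, which encodes interferon beta, had 264, 288 and 277 counts in oe-AQP1 cells, against 3, 6 and 5 in the control cells (log2FC = 5.72, SE 0.30, FDR = 2.6e-07 by limma-voom). Ifna4 had 34, 23 and 23 counts against 0 in each oe-NC sample, and was at least 25.6-fold higher when set against a floor of 3 counts over the oe-NC group. Both were all but silent in the control cells. Ifna2 and Ifna5 had at most 7 counts and were not tested.

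Receptors changed little. Of the 4 receptor genes 2 were higher and 1 was lower at the FDR threshold, from Ifngr1 (log2FC = -0.21) to Ifngr2 (log2FC = 0.37), the chains of the interferon gamma receptor. Over all genes tested, the FDR threshold called 16.0% higher and 16.6% lower, so little is read from counts over lists this short. Of the 6 signal transduction genes 3 were higher and 1 was lower at the same threshold. The highest value was that of Stat2 (log2FC = 1.97), a subunit of the transcription factor complex that interferon activates. The lowest was that of the kinase gene Jak1 (log2FC = -0.11, FDR = 0.0457). Of the 8 regulatory factor and feedback genes 5 were higher and 0 lower, with Irf7, the main amplifier of interferon genes, highest (log2FC = 1.97, FDR = 3.45e-11). The value lowest in that list was Socs3 (log2FC = -0.19, FDR = 0.181), which did not pass.

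All 16 of the 16 interferon target genes were higher past both thresholds, which called 4.39% of all genes tested as higher. The list was chosen with earlier results of these data known, so this count is a description only. The 16 targets ranged from Bst2 (log2FC = 1.32), which tethers budding virions, to Mx1 (log2FC = 5.91), an antiviral GTPase, with a median log2FC of 2.09. The values of the 5 Schlafen genes ran from 1.14 to 2.47. Slfn5 (2.47) and Slfn8 (2.20) were above the median of the targets, and Slfn2 (1.86) and Slfn9 (1.84) were below it. Slfn3 (1.14) was below the lowest target.

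**Figure D5:**
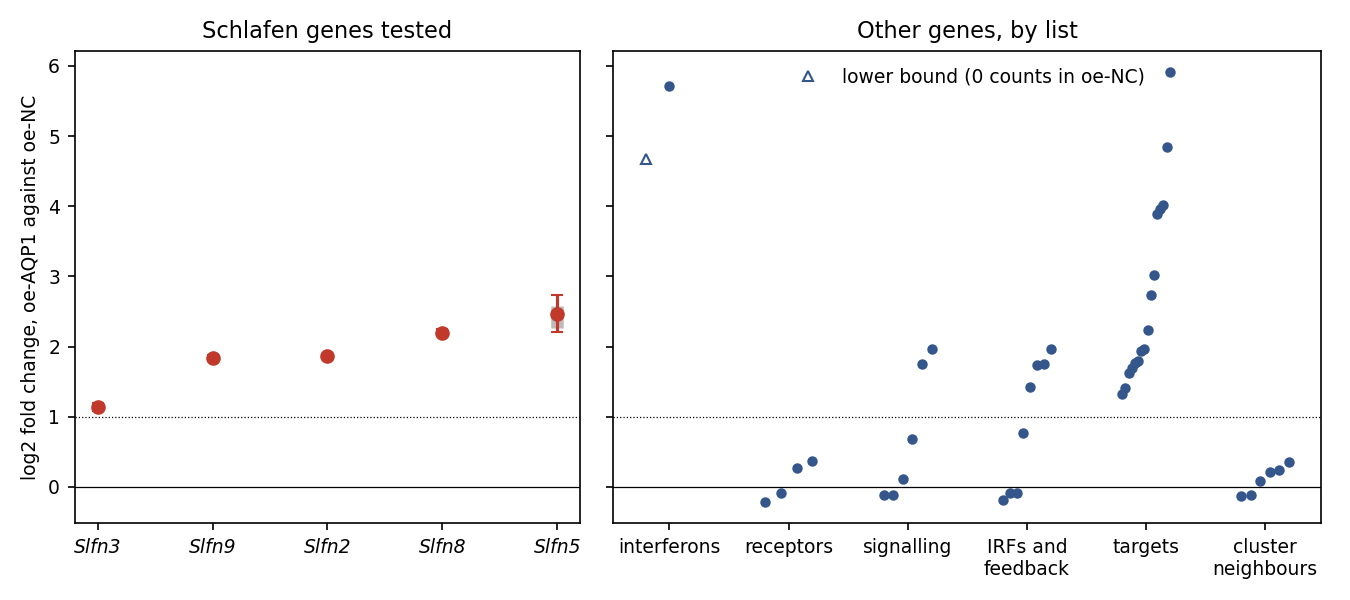
Left, log2 fold change of the 5 Schlafen genes tested, with bars for the SE and grey bands for the range when 1 sample is left out. Right, log2 fold changes of the interferon lists and of the cluster neighbours, each point 1 gene; the triangle is the lower bound of Ifna4, and the dotted line marks 1. The 16 targets lie between 1.32 and 5.91, the Schlafen genes between 1.14 and 2.47, and the neighbours between -0.13 and 0.36. The neighbours shown are the 6 tested of 8 genes listed, not all genes near the cluster.

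For each member, the 3 genes with the most similar profile were those with the smallest root mean square difference of log2 CPM over the 6 samples, after each gene's own mean was subtracted. For Slfn2 these were Gm57169 (difference 0.024), Tnf (0.027), which encodes tumor necrosis factor, and Trim34b (0.05). Tnf (0.027) was also closest to Slfn9, ahead of Ifi44 (0.041) and Parp9 (0.041). Slfn3 was closest to Plscr2 (0.036), the necroptosis effector gene Mlkl (0.036) and Oas2 (0.037), and Slfn8 to Dtx3l (0.05), Samd9l (0.056) and Herc6 (0.057). The nearest profiles to Slfn5 were farther away, Col24a1 at 0.134, Tmem229b at 0.155 and ENSMUSG00000144203 at 0.156. Col24a1 (log2FC = 2.76) and ENSMUSG00000144203 (log2FC = 3.81) were near the floor in oe-NC cells, at means of 0.0835 and 0.0326 CPM. The log2 CPM held a prior count of 2, which narrows differences at such levels, so little is read from these matches. Since the 6 samples form 2 groups, the measure rests mainly on the size of the group difference.

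Since Schlafen genes are known from blood cells, markers of these cells were read in the same samples. Of 9 lymphocyte markers, 8 had at most 5 counts in every sample, and Ptprc, the pan-leukocyte marker CD45, had 0 to 3. The exception was Cd79a with 14 to 26 counts, and the summed level of the list was 0.819 to 1.42 CPM in oe-AQP1 and 1.2 to 1.64 CPM in oe-NC samples. Of 10 macrophage and granulocyte markers, 7 had at most 5 counts in every sample, and Adgre1 and S100a9 were listed at 0. The sum of that list was 47.8 to 51.3 CPM in oe-AQP1 and 55.9 to 58.8 CPM in oe-NC samples, with Csf1r lowest (log2FC = -1.51, FDR = 1.31e-05) and Cd68 highest (log2FC = 0.15, FDR = 0.0764). Cd68 had 666 to 777 counts with oe-AQP1 and 576 to 650 with oe-NC. Lyz2 had 234 to 268 counts with oe-AQP1 and 312 to 361 with oe-NC. Together with Csf1r, these genes made up most of the macrophage and granulocyte sum. Whether blood cells have a part in the Schlafen values was not tested.

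Markers of the labelled tissue were present in part. Of 8 markers of renal epithelium 7 were tested, among them Pax8 with 3054 to 3630 counts, and Epcam was listed at 0. Their summed level was 804 to 837 CPM in oe-AQP1 and 989 to 1090 CPM in oe-NC samples. The FDR threshold called 16.6% of all genes tested as lower and 16.0% as higher. Of the 7 markers tested, it called 4 lower and 0 higher, from Lrp2 (log2FC = -0.93) to Pax2 (log2FC = 0.25, FDR = 0.124). The part of this shift in the Schlafen values was not tested.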

How the data were processed

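RNA of 6 samples of RENCA cells, 3 oe-AQP1 and 3 oe-NC, was sequenced paired-end from Illumina TruSeq libraries. The authors deposited expected counts per gene, not scaled between samples, of which 10.2% are not whole numbers. Their processing notes name fastp, HISAT2, featureCounts and Subread, without versions, and the build GRCm38 (mm10), whereas the paper's methods name GRCm39. Of 78298 gene identifiers, 99.8% were found in GENCODE M39 on GRCm39, the source of positions and exon lengths. The 2 columns of group means were not used.

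Expected counts were rounded to whole numbers. Genes were kept by edgeR's filterByExpr (minimum count 10), scaled by TMM (factors 0.993 to 1.006) and compared by limma-voom, with Benjamini-Hochberg adjustment, following the study's methods (limma 3.58.1, edgeR 4.0.16, R 4.3.3). CPM values divide a count by the library total and its TMM factor. Counting intervals are exact (95%). RefSeq promoter windows were searched with Python 3.11.15, and coding sequences aligned with Biopython 1.88. The alternatives comprised the quasi-likelihood test of edgeR, DESeq2 1.42.0, other scalings and filters, no rounding, other fold thresholds, a replicate block and leaving out each sample. In simulated counts for this comparison (15243 genes tested, 200 changed by 2 on the log2 scale), limma-voom recovered 98% with 3 false calls, edgeR 99% with 2 and DESeq2 95% with 2.

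The members and gene lists were chosen with earlier results of these data known. Named were all members, Aqp1, the highest and lowest gene of each list, and the 3 genes most alike to each member tested. Named beyond this rule were further genes that describe a list or overlap a member.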

Additional observations from a re-analysis of the deposited data

How the results depend on the processing

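The log2FC of the 5 Schlafen genes tested kept its direction and its call in each alternative that gave a value, 14 each for Slfn2, Slfn3, Slfn8 and Slfn9 and 13 for Slfn5, which a filter of at least 10 counts in every sample removed. With a fold threshold of 2 on the log2 scale 2 members were called, Slfn5 and Slfn8. The number of members called was 5 to 6 when 1 sample was left out, 7 with no low-count filter and 4 with at least 10 counts in every sample. Slfn1 passed the filter when oe-AQP1 sample 2 or any oe-NC sample was left out, with a log2FC between 2.44 and 3.67. It did so through its oe-AQP1 samples only. Counts above 5 thus rest on Slfn1 and, with no low-count filter, also on Slfn4, and nothing is read from them. Of the cluster neighbours, 1 was higher with no low-count filter, 2 with edgeR, and 2 to 4 when 1 sample was left out, 4 of them without oe-NC sample 1. Without division by length the shares in oe-AQP1 and oe-NC cells were 21.5% and 22.2% for Slfn2, 40.4% and 42.2% for Slfn9, and 32.3% in oe-AQP1 cells for Slfn8, so Slfn9 came first and the samples of the groups overlapped for Slfn2. The share of Slfn9 in oe-AQP1 cells was 23.7% to 23.8% when 1 sample was left out. Leaving out 1 sample moved the difference of Slfn2 against Slfn5 to between -0.81 and -0.45, that of Slfn5 against Slfn9 to between 0.45 and 0.85 and that of Slfn5 against Slfn8 to between 0.05 and 0.50. Without oe-NC sample 1 the shifts of Slfn2 and Slfn9 against Slfn5 exceeded those of both against Slfn3. The lowest sizes came without oe-NC sample 2, in which Slfn5 had 8 counts. Over all genes, 416 were higher and 66 lower past both thresholds with at least 10 counts in every sample, against 681 and 131. Samples with the same number did not deviate together (r = 0.009, -0.004 and -0.068), so the numbers were not read as pairs. With a replicate block the count of members called was 5, that of interferon genes 28 and that of neighbours 3, and the log2FC was 1.86 for Slfn2, 1.14 for Slfn3, 2.45 for Slfn5, 2.20 for Slfn8 and 1.84 for Slfn9. Depth limits Slfn1 and Slfn4, whose control samples held 0 to 2 counts.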
